A study of Rattus norvegicus with 16 samples.

Results

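The account covers 10 genes of protein folding and stress signalling in the endoplasmic reticulum (ER), picked by name for their role, with earlier results of these data known: Hspa5, Hsp90b1, Xbp1, Herpud1, Dnajb9, Dnajc3, Calr, Pdia4, Pdia6 and Sel1l. They are 10 of the 22517 gene symbols listed. Hsp90b1 is listed under its older symbol Tra1. Pdia6 is listed at 0 in all 16 libraries, where a 0 can be a failed estimate, so no value is given for it and 9 genes are described.

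RNA was sequenced from liver and epididymal fat of 8 male obese Zucker rats (ZDF/GmiCrl-fa/fa), a line that lacks a working leptin receptor and becomes obese and diabetic. All rats were bought at 7 weeks of age, were homozygous for fa and ate Purina 5008 feed. From 9 to 11 weeks of age, 4 rats had R-α-lipoic acid (LA) added to this feed, and 4 were pair-fed (PF) the feed without it. Lipoic acid is a dithiol that mitochondrial dehydrogenases use as a bound cofactor. The 4 groups of 4 libraries are LA liver, PF liver, LA fat and PF fat, and lean rats or rats fed freely are not part of the comparison. The labels do not link the liver library of a rat to its fat library, so the comparisons between tissues treat libraries of the same rats as independent.

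Secreted and membrane proteins fold in the ER with the help of chaperones such as BiP (Hspa5) and of enzymes that form disulphide bonds. When unfolded proteins build up, the sensors IRE1, PERK and ATF6 start the unfolded protein response, which slows translation and raises the transcription of chaperones and of the machinery that returns misfolded proteins to the cytosol for degradation. IRE1 splices the Xbp1 transcript into the form that encodes the active factor, a change that a value per gene cannot show. Hepatocytes secrete most plasma proteins and adipocytes secrete adipokines, so both tissues hold a large folding load, and obesity is known to engage this response in both.

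Many of these genes carry an ER stress response element close to their start site, bound by ATF6 and XBP1 together with the factor NF-Y. The promoters of the RefSeq GRCr8 assembly (250 bases before to 50 after each start, 33469 promoters) were searched on both strands for this element, written as CCAAT, 9 bases of any kind and CCACG, which 22 of them hold (0.0657%). Those 22 include 5 of the genes described: Hspa5, Hsp90b1, Dnajc3, Calr and Xbp1. A second form, ATTGG, 1 base of any kind and CCACG, is in 17 promoters (0.0508%), Herpud1 among them. The letters TGACGTGG of the XBP1 element are in 199 promoters (0.595%) and in none of the 9 searched here. Dnajb9, Pdia4 and Sel1l hold none of the 3 motifs in this window, which says only that these letters are not there. The table has no promoter for Pdia6. The stretches around the matches are shown because 5 of the genes share the first form and Herpud1 holds the second, each read 5′ to 3′ on the strand of its gene, with the match in capitals and up to 20 bases on either side.
Hspa5 (chr3:38452953-38453011, + strand): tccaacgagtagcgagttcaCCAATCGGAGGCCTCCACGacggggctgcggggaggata
Hsp90b1 (chr7:23012327-23012489, - strand): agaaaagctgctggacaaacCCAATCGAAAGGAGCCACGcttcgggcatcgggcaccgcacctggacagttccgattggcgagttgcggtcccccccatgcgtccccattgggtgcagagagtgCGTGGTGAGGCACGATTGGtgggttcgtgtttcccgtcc
Dnajc3 (chr15:102432514-102432572, + strand): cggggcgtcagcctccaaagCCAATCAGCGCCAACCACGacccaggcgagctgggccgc
Calr (chr19:40213117-40213173, + strand): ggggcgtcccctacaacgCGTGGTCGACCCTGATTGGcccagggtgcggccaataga
Xbp1 (chr14:84604538-84604596, + strand): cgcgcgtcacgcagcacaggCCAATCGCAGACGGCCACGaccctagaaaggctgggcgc
Herpud1 (chr19:10614801-10614851, - strand): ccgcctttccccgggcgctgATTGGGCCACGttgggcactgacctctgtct
The last base of the Hspa5 match lies 25 bases before the annotated start, the nearest of the 7 matches. The Calr match lies farthest away, at 214 bases, and reads on the opposite strand. Hsp90b1 has 2 matches, at 158 and 54 bases, and the nearer one is also on the opposite strand.

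Values are in FPKM, a unit that divides a gene's fragments by its length and by the size of its library and was computed by the authors, so levels of different genes can be set side by side per length. Total fragment numbers are unknown. The steps between low values showed that 1 fragment was worth 0.722 to 0.901 in LA liver, 0.853 to 1 in PF liver, 0.737 to 0.865 in LA fat and 0.774 to 0.959 in PF fat, relative to PF liver replicate 1, which is 1 by definition. Between 9522 and 11480 genes reached 1 FPKM in a library. Markers fitted the labelled tissues: the 7 adipocyte markers summed to 57.3 to 69.7 FPKM in liver, where Adipoq, Plin1, Lep and Retn were listed at 0, and to 13332 to 16344 FPKM in fat. The 8 hepatocyte markers summed to 36295 to 57643 FPKM in liver and 47.3 to 433 FPKM in fat.

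The genes described ranged from abundant to moderate transcripts. Of the genes above 0 in LA liver, 98.6% had a lower mean than Calr and 81.6% a lower one than Dnajb9. In PF fat 98.7% lay below Hspa5 and 79.4% below Sel1l. Summed, the 9 genes made up 0.261% to 0.288% of all FPKM in LA liver and 0.256% to 0.282% in PF liver. In fat they made up 0.208% to 0.296% under LA and 0.1999% to 0.231% under PF. In liver the order of levels began with Calr, Hspa5 and Hsp90b1 under both feeds and ended with Sel1l and Dnajb9. In fat it began with Hspa5, Calr and Hsp90b1 and also ended with Dnajb9 and Sel1l. Several neighbours in these orders did not differ beyond their spread: in both fat groups Hspa5 and Calr overlapped, as did Dnajb9 and Sel1l, and in PF liver the 5 genes from Hsp90b1 to Xbp1 each overlapped with the next. Hspa5 alone held 18.4% to 20.5% of the summed level in the 8 liver libraries and 27.2% to 33.5% in the 8 fat libraries.

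**Figure D1:**
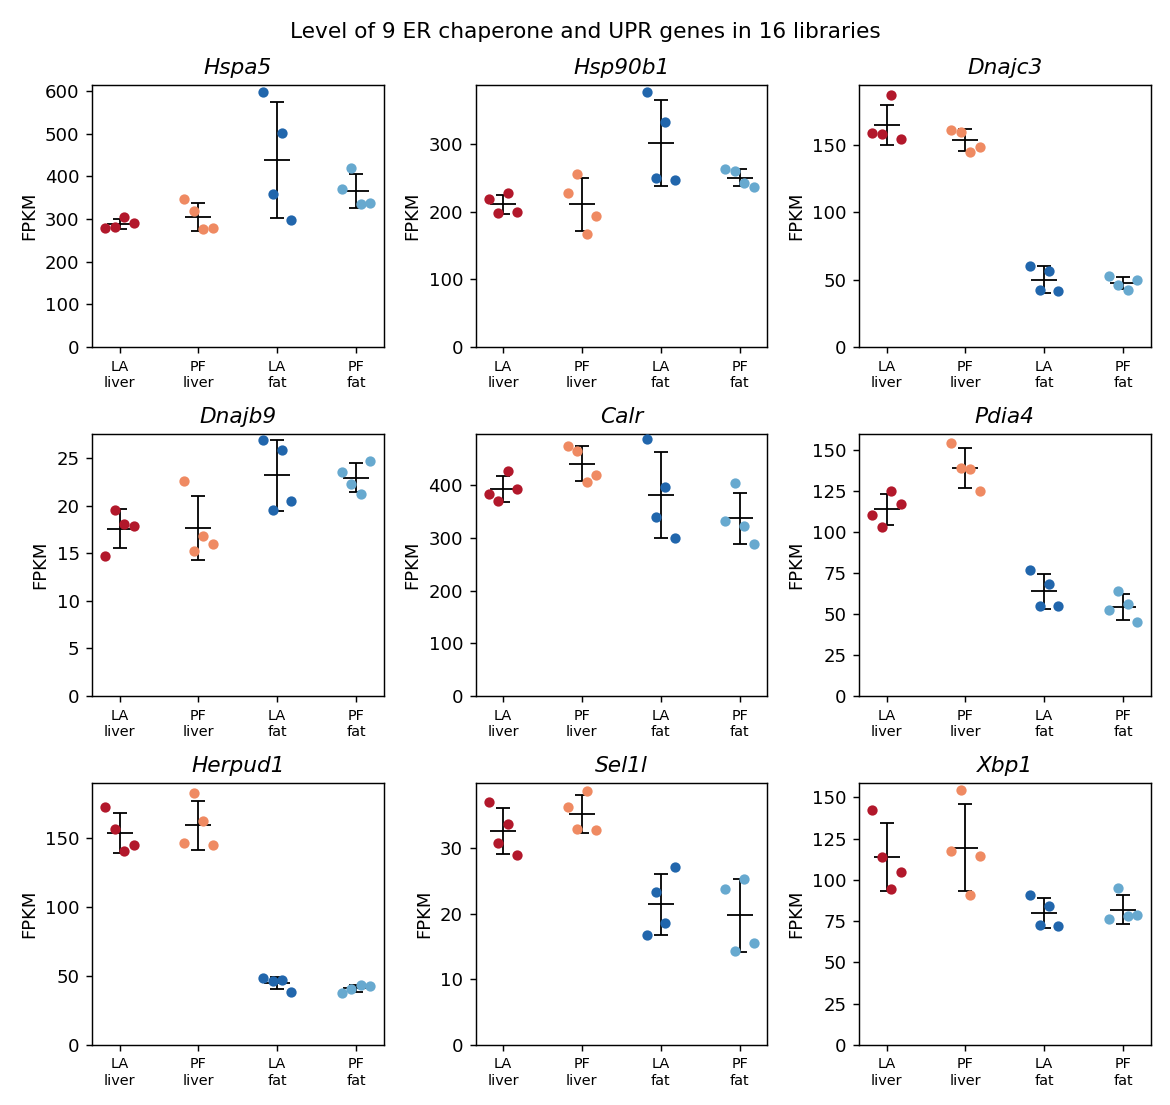
Level in FPKM (vertical axes from 0) of the 9 genes in LA liver, PF liver, LA fat and PF fat. Each point is 1 library, the long bar is the mean of 4 and the whiskers are 1 SD. Herpud1, Dnajc3, Pdia4 and Sel1l stand higher in liver than in fat in every library, while the LA and PF groups of a tissue overlap in every panel.

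Among the chaperones, Hspa5 (BiP), the Hsp70 of the ER that binds unfolded chains and holds the 3 sensors inactive, had 278, 282, 305 and 291 FPKM in LA liver, against 346, 318, 277 and 279 FPKM in PF liver. Fat values were 598, 358, 503 and 298 FPKM under LA, against 369.7, 420.3, 334 and 337 FPKM under PF. The LA fat libraries held both the highest and the lowest of the 8 fat values, and their SD was 136 FPKM around a mean of 439 FPKM, against 40.1 FPKM around 365 FPKM in PF fat.

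Hsp90b1, the Hsp90 of the ER (GRP94), which folds integrins and Toll-like receptors, had 218, 198, 228 and 199.5 FPKM in LA liver, against 228, 255, 167 and 194 FPKM in PF liver. In fat the values were 377, 249, 332 and 248 FPKM under LA, against 263, 261, 242 and 237 FPKM under PF. LA fat replicates 1 and 3 were the high ones, as for Hspa5, and for Hsp90b1 the other two lay within the PF range.

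The J-domain cochaperones hand substrates to BiP. Dnajc3 (p58IPK), which also inhibits PERK, had 158, 158, 187 and 155 FPKM in LA liver, against 161, 159, 145 and 148 FPKM in PF liver, and 60.1, 42.2, 56.7 and 41.3 FPKM in LA fat, against 52.3, 46.2, 42.4 and 49.98 FPKM in PF fat. Dnajb9 (ERdj4), which recruits BiP to IRE1, had 14.7, 19.6, 18.1 and 17.9 FPKM in LA liver, against 22.6, 15.3, 16.8 and 15.9 FPKM in PF liver. The fat libraries had 26.9, 19.5, 25.8 and 20.5 FPKM under LA, against 23.5, 22.3, 21.2 and 24.7 FPKM under PF. The feeds overlapped for both genes in both tissues, and Dnajc3 in liver was above every fat value.

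Calr (calreticulin), a calcium-binding lectin chaperone of glycoproteins, had 383, 370.0, 427 and 393 FPKM in LA liver, against 476, 465, 406 and 420.2 FPKM in PF liver. Its fat values were 488, 340.1, 397 and 299 FPKM under LA, against 332, 405, 323 and 288 FPKM under PF. Only LA liver replicate 3 reached into the PF liver range.

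Pdia4 (ERp72), a protein disulphide isomerase, had 110.0, 103, 125 and 117 FPKM in LA liver, against 154, 139, 138 and 124 FPKM in PF liver. In fat it had 76.9, 54.7, 68.1 and 54.9 FPKM under LA, against 52.5, 63.9, 56.3 and 45.0 FPKM under PF. The liver groups overlapped by a single library on each side, LA replicate 3 at 124.7 FPKM and PF replicate 4 at 124.5 FPKM.

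In ER-associated degradation, Herpud1, a membrane scaffold of the ubiquitin ligase complex, had 172, 156, 140.5 and 145 FPKM in LA liver, against 146, 183, 162 and 145 FPKM in PF liver, and 37.9 to 48.3 FPKM in LA fat, against 37.4 to 43.2 FPKM in PF fat. Sel1l, the partner of the ligase HRD1, had 37.0, 30.8, 33.6 and 28.9 FPKM in LA liver, against 36.3, 32.8, 38.7 and 32.7 FPKM in PF liver. Sel1l in fat stood at 16.7, 23.3, 18.6 and 27.1 FPKM under LA, against 23.7, 14.3, 25.3 and 15.6 FPKM under PF. The feeds overlapped in fat, where the lowest values were those of PF replicates 2 and 4, and within LA fat Sel1l was lowest in replicates 1 and 3.

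Xbp1, the transcription factor of the IRE1 arm, had 142, 114, 94.3 and 105 FPKM in LA liver, against 117, 155, 91.0 and 114 FPKM in PF liver. In fat it had 91.1, 72.9, 83.8 and 72.1 FPKM under LA, against 76.0, 94.9, 77.9 and 78.6 FPKM under PF. The spread within each liver group was wider than the distance between their means, 114 ± 20.6 FPKM in LA liver and 119 ± 26.4 FPKM in PF liver (SD, n = 4 each).

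The liver comparison asked whether LA feeding changed these transcripts relative to pair-feeding. None of the 9 passed the test, which was limma on log2(FPKM + 1) with Benjamini-Hochberg adjustment over 9710 genes and an adjusted p under 0.05, where 4.48% of all genes passed (435 genes). At an unadjusted p under 0.05 stood 1 of the 9, Pdia4, against 20.1% of all genes. The LA and PF ranges were apart for 0 of the 9 and for 12.3% of all genes. Pdia4, at 114 ± 9.32 FPKM in LA liver and 139 ± 12.1 FPKM in PF liver (SD, n = 4 each), had a log2 fold change of -0.29 (SE 0.09, limma adjusted p = 0.094), a level 0.819 times that of PF liver. Under the alternative settings and with each library left out its adjusted p lay between 0.066 and 0.29.

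For the other 8 genes the log2 fold change in liver lay between -0.17 for Calr (adjusted p = 0.30) and 0.10 for Dnajc3 (adjusted p = 0.56). The 95% intervals show what sizes the data leave possible. That of Calr ran from -0.35 to 0.02, that of Hspa5 from -0.27 to 0.13, and the widest, that of Xbp1, from -0.42 to 0.30. The median over the 9 was -0.06, beside -0.00 over all genes tested.

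Other measures moved with the feed in liver. The summed hepatocyte markers were 36295 to 43932 FPKM in LA liver, against 46069 to 57643 FPKM in PF liver, with 7 of 8 markers lower and 2 passing the test. The macrophage markers summed to 101 to 153 FPKM in LA liver, against 70.9 to 84.5 FPKM in PF liver, with 2 of 5 tested passing and Adgre1 and Marco listed at 0 throughout. Fewer cells of a type and less RNA per cell cannot be told apart in tissue RNA. The part of these markers in the liver values was not tested.

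In fat, none of the 9 genes passed either, where 2 of 11501 genes did (0.0174%), and 0 of the 9 had an unadjusted p under 0.05, against 3.92% of all genes. The LA and PF ranges were apart for 0 of the 9 and for 2.08% of all genes. The fold change was positive for 8 of 9, with a median of 0.13 beside 0.01 over all genes. The largest were Hsp90b1 at 0.24 (95% interval -0.08 to 0.57), Pdia4 at 0.22 (-0.10 to 0.54) and Hspa5 at 0.22 (-0.24 to 0.68), and Xbp1 was at -0.03. The lowest adjusted p was 0.9997. These intervals leave room for changes of up to 1.601-fold in Hspa5.

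**Figure D2:**
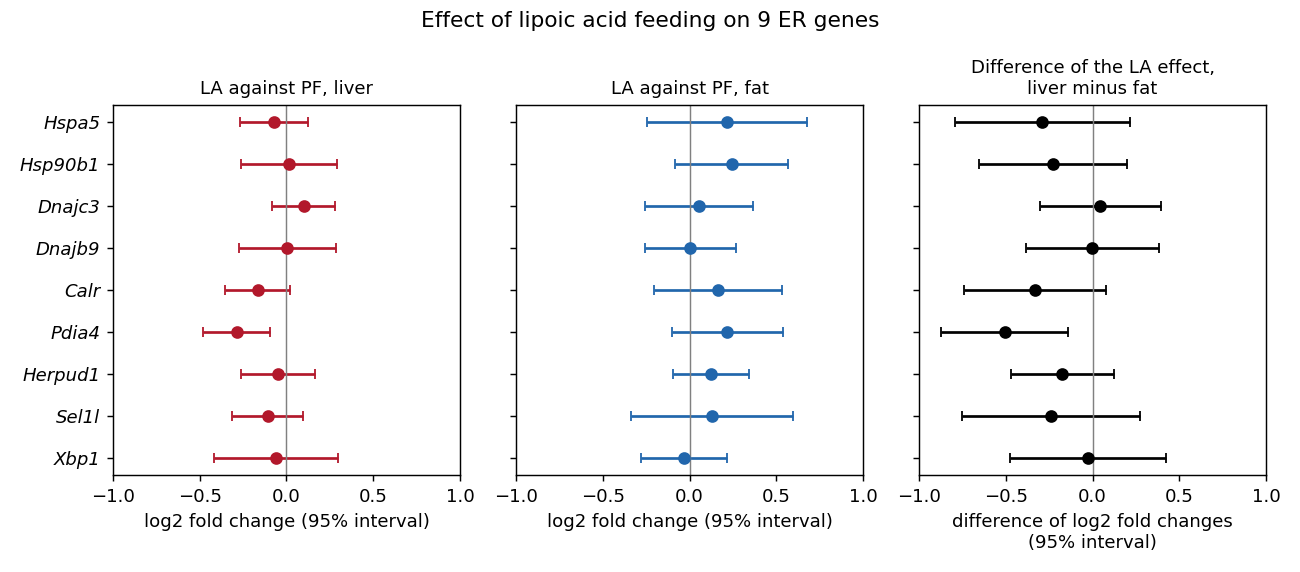
Log2 fold change of LA over PF in liver (left) and fat (middle), and the difference of these changes, liver minus fat (right), for the 9 genes. Points are limma estimates and bars 95% intervals, not adjusted for the number of genes. In liver and in the difference the interval of Pdia4 alone lies below 0, and in fat every interval spans 0.

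The difference of the LA effect between liver and fat passed for 0 of the 9 genes, where 0.381% of 12079 genes passed. Its estimate was negative for 8 of 9. It was -0.51 for Pdia4 (SE 0.17, unadjusted p = 0.00996, limma adjusted p = 0.34), -0.33 for Calr (adjusted p = 0.76) and -0.29 for Hspa5 (adjusted p = 0.88). A different response of the tissues was therefore not detectable for these genes at this number of rats.

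Within LA fat most of the genes were high or low in the same libraries. In all, 8 of the 9 genes were above their group mean in LA fat replicate 1 and again in replicate 3, with Sel1l as the exception in both, while 2 of 9 were above it in replicate 2 and 1 of 9 in replicate 4. In PF fat the counts were 5, 5, 3 and 3 of 9 for replicates 1 to 4, with no such split. Summed over the 9 genes, the 4 LA fat libraries held 1783, 1206, 1532 and 1099 FPKM, against 1230, 1368, 1165 and 1119 FPKM in the 4 PF fat libraries. The sum of all FPKM was 602670, 522413, 580391 and 527553 in LA fat, also highest in replicates 1 and 3, against 539921, 591659, 503569 and 559553 in PF fat, where replicate 4 had the lowest sum over the 9 genes and the second highest over all. Over the 8 fat libraries, the 28 pairs among the 8 genes without Sel1l all had a positive correlation of their deviations from the group means (r = 0.39 to 0.97, median 0.79), and Sel1l had r between -0.82 and -0.46 with each of the other 8. In PF fat, however, Sel1l was above its mean in replicate 1 together with 4 of the others and below it in replicate 4 together with 5. Over the 8 liver libraries 20 of the 28 pairs were positive, with a median of 0.37. The fat libraries also differed in depth. Relative to PF liver replicate 1, 1 fragment was worth 0.865, 0.737, 0.841 and 0.753 in LA fat replicates 1 to 4, so most in replicates 1 and 3. In PF fat it was worth 0.959, 0.774, 0.785 and 0.908. The part of depth and tissue make-up in the shared variation was not tested.

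**Figure D3:**
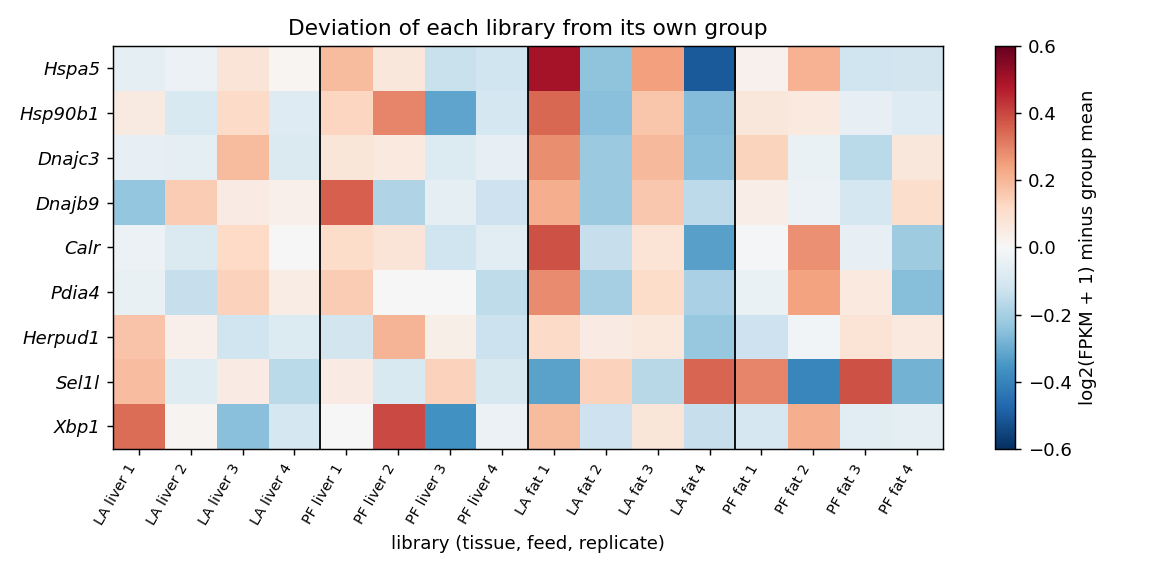
Deviation of each library from the mean of its own group, in log2(FPKM + 1), for the 9 genes (rows) in the 16 libraries (columns, by tissue, feed and replicate). Red is above and blue below the group mean. LA fat replicates 1 and 3 are red for 8 of 9 genes, where Sel1l is blue, and the PF fat columns are mixed.

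Markers of other cells varied among the same fat libraries. In the order of LA replicates 1 to 4 the macrophage markers summed to 571, 321, 378 and 341 FPKM, against 294, 296, 241 and 265 FPKM in PF fat. Each LA fat sum lay above every PF fat sum. Of 5 macrophage markers tested in fat, 5 were positive, 3 had an unadjusted limma p under 0.05 and 0 passed. The fibroblast markers summed to 2924, 2297, 2425 and 2007 FPKM in LA fat, against 2202, 2411, 2460 and 2035 FPKM in PF fat. The mesothelium markers summed to 105, 309, 230 and 330 FPKM in LA fat, against 38.4, 272, 293 and 173 FPKM in PF fat, so both lists varied within each feed. The endothelium markers summed to 68.7, 107, 72.9 and 90.3 FPKM in LA fat, against 109, 98.6, 104 and 76.5 FPKM in PF fat. Within LA fat the macrophage and fibroblast sums were highest in replicates 1 and 3, and the mesothelium and endothelium sums lowest there. The adipocyte sums, 13332, 13727, 14472 and 13368 FPKM, did not split this way. The plasma and B cell markers summed to 1.56 to 3.63 FPKM over 7 genes in fat. That list holds no immunoglobulin gene and Jchain had no match, so for plasma cells it rests on genes such as Mzb1, Pou2af1 and Tnfrsf17. Tnfrsf17 was listed at 0 throughout PF fat. These low sums do not measure the part of plasma cells. The part of any of these markers in the shared variation was not tested.

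Genes whose deviations from the group means were most like those of Hspa5 over the 16 libraries were ranked among 12078 others. Calr ranked second, with r = 0.93 (0.94 in fat and 0.91 in liver). The 5 nearest genes outside the 10 were LOC100361193 (r = 0.94), RGD1560658 (0.92), Sfrp4 (0.92), LOC100363064 (0.90) and Tmed9 (0.90). Sfrp4 is a secreted Wnt antagonist and Tmed9 a cargo receptor of the early secretory pathway, and the others are unnamed gene models. RGD1560658, Sfrp4 and LOC100363064 had no variation within liver in the fitted values, so their r rests on fat. Of the other genes described, Hsp90b1, Dnajc3 and Pdia4 had r of 0.84, 0.83 and 0.82, Dnajb9 had 0.63, Xbp1 0.45, Herpud1 0.33 and Sel1l -0.63.

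Beyond the 10 genes, 7 lists of related genes were counted. Of 21 other ER chaperones and foldases tested in liver, 0 passed, with 3 at an unadjusted p under 0.05 and a median log2 fold change of -0.05. The 3 of smallest p were Fkbp2, a prolyl isomerase, at -0.29 (adjusted p = 0.10), Erp44, a disulphide exchange protein, at -0.23 (adjusted p = 0.12) and P4hb, the founding protein disulphide isomerase, at -0.32 (adjusted p = 0.13). Pdia4 had a value of similar size, and none of these 4 passed.

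Of 17 genes of ER-associated degradation, 0 passed and 0 had an unadjusted p under 0.05, with a median of -0.03. Edem1, a mannosidase that marks misfolded glycoproteins, was at -0.24, Vimp, a selenoprotein of the retrotranslocation complex, at 0.17, and Faf2, which recruits p97 to the ER, at 0.14. Of 13 sensors and transcription factors of the response, 0 passed and 1 had an unadjusted p under 0.05. Nfya and Nfyb, 2 subunits of NF-Y, were at 0.25 and -0.21, and Eif2ak3, which encodes PERK, was at -0.12.

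The PERK and ATF4 arm held 1 call in liver among 11 genes tested. Of the 11, 9 had a positive fold change and 3 an unadjusted p under 0.05, with a median of 0.06. Trib3, a pseudokinase induced by ATF4 and CHOP, had 11.8, 22.5, 10.9 and 18.6 FPKM in LA liver, against 2.81, 2.11, 0.9751 and 1.92 FPKM in PF liver. The groups were far apart, and Trib3 rose by 2.50 on the log2 scale (SE 0.24, limma adjusted p = 0.00045). In fat it had 4.07, 2.02, 2.18 and 4.46 FPKM under LA, against 1.89, 2.56, 0.720 and 1.96 FPKM under PF, and did not pass (adjusted p = 0.9997). Atf4 itself was at 0.04 in liver (adjusted p = 0.86) and Ddit3, which encodes CHOP, at 0.35 (adjusted p = 0.23).

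The LA effect on Trib3 was larger in liver than in fat by 1.91 on the log2 scale (limma adjusted p = 0.045), and Vldlr, a lipoprotein receptor under ATF4 control, differed by 0.65 (adjusted p = 0.036). Vldlr was at 0.498 ± 0.148 FPKM in LA liver and 0.048 ± 0.045 FPKM in PF liver, and at 15.8 ± 0.650 FPKM in LA fat and 17.5 ± 1.58 FPKM in PF fat (SD, n = 4 each), so its liver levels lie under the 1 FPKM limit of the filter. The call of Trib3 was lost with a pseudocount of 0.1 (adjusted p = 0.14) and both were lost without the filter (0.094 and 0.056). With a pseudocount of 0.1 the difference for Vldlr was 2.17. With each of the 16 libraries left out in turn, Trib3 stayed under 0.05 in 4 fits, those without LA liver replicate 1 or 3, LA fat replicate 4 or PF fat replicate 3, and reached an adjusted p of 0.11. Vldlr stayed under it in 3 fits, those without LA liver replicate 1, PF liver replicate 4 or PF fat replicate 4, and reached 0.091. Both differences are therefore near the threshold.

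The 20 translocon and signal peptide processing genes tested had 0 calls, 1 unadjusted p under 0.05 and a median of -0.04. The examples are Sec61b, a subunit of the translocation channel, at -0.22, Sec62, its partner, at -0.14, and Sec11a, a signal peptidase subunit, at 0.16. The 12 genes of COPII vesicles and ER exit likewise had 0 calls, 1 unadjusted p under 0.05 and a median of -0.04. There the coat proteins Sec23b, Sec31a and Sec23a were at 0.27, 0.16 and -0.19.

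Chaperones outside the ER gave other values. Of 18 cytosolic and mitochondrial chaperones tested in liver, 17 had a positive fold change and the median was 0.25, beside -0.00 over all genes. In this list 2 passed, where 4.48% of all genes did, and 7 had an unadjusted p under 0.05, against 20.1% of all genes. With 1 library left out the number that passed ran from 0 to 3. Hspa9 (mortalin), the Hsp70 of the mitochondrial matrix, had 268, 335, 300.4 and 302 FPKM in LA liver, against 204, 193, 218 and 239.7 FPKM in PF liver, with a log2 fold change of 0.49 (SE 0.09, limma adjusted p = 0.016). Bag3, a cochaperone of cytosolic Hsp70, had 9.15, 8.79, 8.90 and 9.97 FPKM in LA liver, against 6.59, 6.55, 7.51 and 6.42 FPKM in PF liver, with 0.39 (SE 0.08, adjusted p = 0.017). The groups did not overlap for either gene. Without PF liver replicate 1 the adjusted p was 0.053 for Hspa9 and 0.052 for Bag3, and without LA liver replicate 2 it was 0.0504 for Hspa9. In fat, 9 of the 18 were positive and 0 passed, with 3 at an unadjusted p under 0.05, and none of the other 6 lists held a call there.

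**Figure D4:**
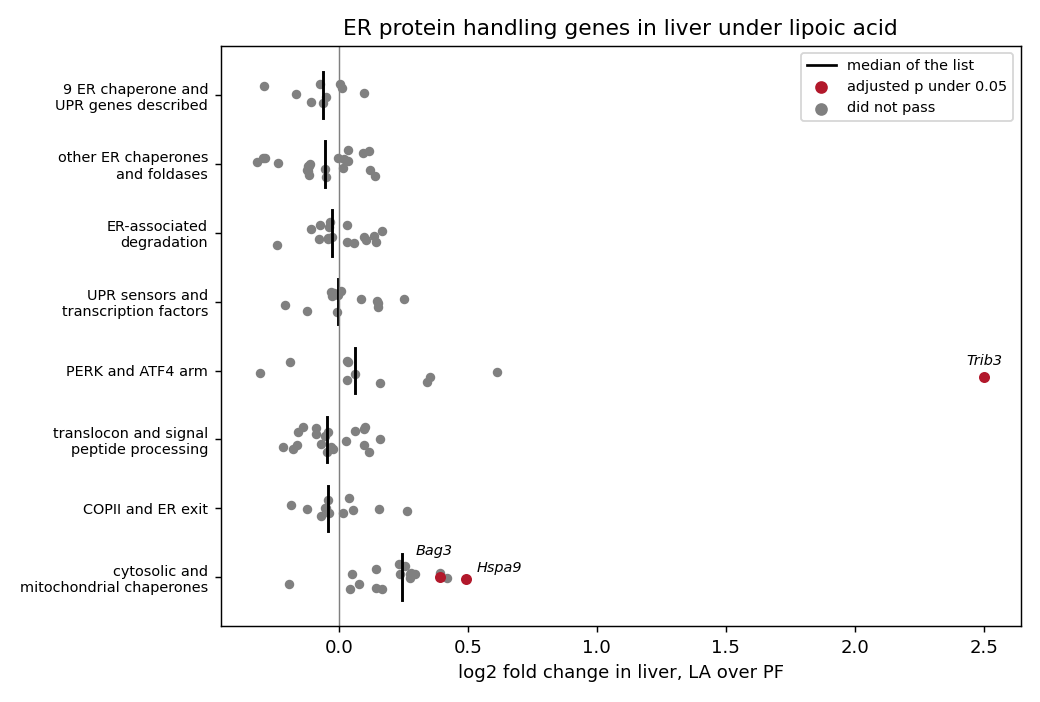
Log2 fold change of LA over PF in liver (horizontal axis) for the 9 genes described and for 7 lists of related genes (rows). Each point is 1 gene, a bar marks the median of its row, and red points passed at an adjusted p under 0.05. The ER rows centre near 0, Trib3 stands apart at 2.50, and the chaperones outside the ER centre at 0.25.

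The largest differences in these genes lay between liver and fat. In LA rats 2 of the 9 passed, both higher in liver, at an adjusted p under 0.05 and a log2 fold change over 1, where 10.5% of all genes passed as higher and 36% as lower. Herpud1 was at 153 ± 14.2 FPKM in LA liver and 44.7 ± 4.63 FPKM in LA fat (SD, n = 4 each), a log2 fold change of 1.76 (SE 0.10, limma adjusted p = 5.7e-08). Dnajc3 was at 164 ± 15.1 FPKM in LA liver and 50.1 ± 9.72 FPKM in LA fat, with 1.71. Pdia4 had 0.84 there, under the fold asked for, with an adjusted p of 8.9e-05.

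In PF rats 3 of the 9 passed, all higher in liver, where 11.1% of all genes passed as higher and 36.3% as lower. Herpud1 was at 159 ± 17.7 FPKM in PF liver and 40.8 ± 2.60 FPKM in PF fat, a log2 fold change of 1.93 (SE 0.10, limma adjusted p = 8.1e-09). Dnajc3 was at 153 ± 8.15 FPKM in PF liver and 47.7 ± 4.37 FPKM in PF fat, with 1.67. Pdia4 was at 139 ± 12.1 FPKM in PF liver and 54.4 ± 7.87 FPKM in PF fat, with 1.34. With no fold asked for, 8 of the 9 passed in LA rats and 7 in PF rats, where 84.6% of all genes passed in each.

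The ranges of liver and fat were apart, with liver higher, for 5 of the 9 in LA rats (16.6% of all genes) and for 5 in PF rats (17.3%). Herpud1, Dnajc3, Pdia4 and Sel1l were among them under both feeds, with Xbp1 in LA rats and Calr in PF rats. With liver lower they were apart for 1, Hsp90b1, in LA rats (63.3% of all genes) and for 0 in PF rats (62.9%).

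Of the genes that did not pass, Sel1l was at 0.60 in LA rats and 0.84 in PF rats, Xbp1 at 0.49 and 0.52, and Calr at 0.07 and 0.40. Hspa5 was at -0.55 in LA rats (adjusted p = 0.023) and -0.26 in PF rats (adjusted p = 0.062), Hsp90b1 at -0.49 and -0.26, and Dnajb9 at -0.38 and -0.37. The median gene of all those tested had a log2 fold change of -0.65 in LA rats and -0.66 in PF rats. Genes that reach 1 FPKM only in fat enter this median. A fat library had 11276 to 11480 genes at 1 FPKM and a liver library 9522 to 9738. The direction of Hspa5, Hsp90b1 and Dnajb9 depended on whether values were set against this median. With each library centred on its median these 3 genes were positive, Hspa5 at 0.12 in LA rats and 0.41 in PF rats. With upper-quartile scaling Hspa5 stayed negative in LA rats, at -0.016, and Hsp90b1 and Dnajb9 were positive under both feeds. Relative to the median of all genes, the 9 genes had a median of 1.14 in LA rats and 1.18 in PF rats.

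**Figure D5:**
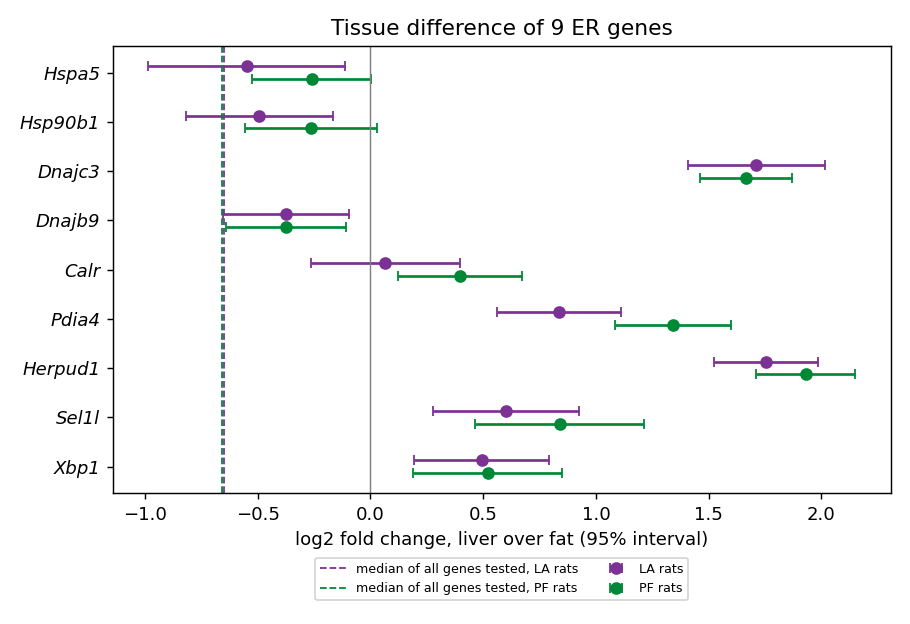
Log2 fold change of liver over fat for the 9 genes, in LA rats (purple) and PF rats (green), with 95% intervals. The dashed lines mark the median of all genes tested in each comparison, -0.65 in LA rats and -0.66 in PF rats. Herpud1 and Dnajc3 lie farthest to the right in both, and Hspa5, Hsp90b1 and Dnajb9 lie between the dashed lines and 0.

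Between the tissues the calls in the related lists depended in part on the scaling, and the genes below were named after their values were seen. Of all genes, 10.5% were called higher and 36% lower in liver in LA rats, and 11.1% higher and 36.3% lower in PF rats. With median centring 1985 of 11568 were higher and 2292 lower in LA rats, and 2064 of 11492 higher and 2253 lower in PF rats. Among 21 ER chaperones and foldases, P4hb, Pdia5 and the oxidase Ero1b were called higher in liver, and Dnajc10 and Erp29 lower, under both feeds. With median centring the list had 4 higher and 0 lower in LA rats and 9 higher and 0 lower in PF rats, and with upper-quartile scaling 3 higher and 1 lower in each. P4hb averaged 630.2 FPKM in LA liver and 293 FPKM in LA fat, and 790.5 FPKM in PF liver and 266 FPKM in PF fat. In degradation, Edem1 was called higher in liver and Vimp and Herpud2 lower under both feeds. With median centring 4 were higher and 0 lower under each feed, and with upper-quartile scaling 1 was higher in each, with 0 lower in LA rats and 1 lower in PF rats. Edem1 averaged 97.3 FPKM in LA liver and 23.4 FPKM in LA fat, and 116 FPKM in PF liver and 19.6 FPKM in PF fat.

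Of the 13 sensors and factors, 1 was called higher and 4 lower in liver in LA rats, and 2 higher and 3 lower in PF rats. Over all genes 10.5% were called higher and 36% lower in LA rats, and 11.1% higher and 36.3% lower in PF rats. With median centring 3 were higher and 1 lower under each feed. Mbtps1, the protease that cleaves ATF6, and the ATF6 relatives Creb3 and Creb3l1 were the genes called lower under both feeds, with Eif2ak3 in LA rats. Creb3 averaged 16.2 FPKM in LA liver and 49.9 FPKM in LA fat, and 16.5 FPKM in PF liver and 51.7 FPKM in PF fat. Ern1, which encodes IRE1, was called higher in PF rats. Creb3l3, a liver-enriched relative of ATF6, averaged 169 FPKM in LA liver and 0.692 FPKM in LA fat, and 154 FPKM in PF liver and 0.977 FPKM in PF fat. The PERK and ATF4 arm had 6 of 12 genes called lower in liver under each feed and 1 higher, Trib3 in LA rats and Nupr1 in PF rats, where 36% of all genes were called lower in LA rats and 36.3% in PF rats. With median centring 3 were higher and 3 lower in LA rats, and 2 higher and 4 lower in PF rats. Atf4 averaged 92.1 FPKM in LA liver and 223 FPKM in LA fat, and the amino acid enzyme Asns 3.16 FPKM in LA liver and 42.0 FPKM in LA fat. Relative to the median of all genes, the arm's median was -0.24 in LA rats and -0.26 in PF rats, while the median of the other ER chaperones was 0.57 in LA rats and 0.83 in PF rats.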

How the data were processed

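Each deposited file lists 1 FPKM value per gene symbol for 1 library, a scaling done by the authors, per the file headers. The submitters' processing notes name CASAVA 1.8.2, TopHat (listed version 0.12.8) and Cuffdiff. No genome build, annotation or setting is stated in the labels or headers. The labels' protocols name TRIzol, RNeasy and the TruSeq V2 kit, which carries no strand information, so overlapping antisense genes share reads. FPKM values are shares, and a few abundant genes can move the rest. Without counts the total depth is unknown, and no count test was run.

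The 10 genes and the lists of related genes and markers were chosen with earlier results of these data known. Of 188 list genes, 165 matched by symbol and 14 through older symbols (RefSeq table, GRCr8), and 9 had no match and are not used here: Txndc5, Derl2, Spcs3, Rpn1, Sec24c, Kdelr2, Jchain, Kdr and Amy2a3. limma 3.58.1 (R 4.3.3) was applied to log2(FPKM + 1) with its trend option. A gene entered a fit if at least 4 of its libraries reached 1 FPKM, and Benjamini-Hochberg adjustment ran over every gene fitted. All 9 measured genes entered each of the 5 comparisons. Fold changes on this scale understate those of low genes. LA was compared with PF within each tissue, the difference of these effects over 16 libraries, and liver with fat within each feed. The fit was run on simulated data with independent noise and planted changes far larger than the LA effects of the 9 genes. That run does not show how well small changes are found. No 2 libraries were identical. From each list the text names the genes called in a diet comparison or in the difference, and otherwise the 3 of smallest p in liver. Atf4 and Ddit3 in liver and the genes named between tissues stand outside this rule. Alternatives were a pseudocount of 0.1, no filter, a mean of at least 5 FPKM, median centring, upper-quartile scaling, a replicate block, all 16 libraries in one model, no trend, other thresholds, and each library left out. Figures were drawn with matplotlib 3.10.9.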

Additional observations from a re-analysis of the deposited data

Results flagged for a closer look

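Of the 36 groups of 4 libraries examined for the 9 genes, 2 held a library far from the other 3, where chance gives about 1 in 20 groups. Xbp1 stood at 94.9 FPKM in PF fat replicate 2, with the gap to the next library taking 0.863 of the group's range, more than the limit of Dixon's test for 4 values. Dnajc3 stood at 187 FPKM in LA liver replicate 3, with 0.881 of the range. The LA effect differed between liver and fat for Trib3 by 1.91 and for Vldlr by 0.65 on the log2 scale, with limma adjusted p-values of 0.045 and 0.036. Neither held its call in most fits with 1 of the 16 libraries left out: the adjusted p was 0.05 or more in 12 of them for Trib3 and in 13 for Vldlr. Vldlr was under 1 FPKM in both liver groups, entered the fit through fat, and differed by 2.17 with a pseudocount of 0.1.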

How the results depend on the processing

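The number of the 9 genes called stayed at 0 for LA in liver, in fat and for their difference, and at 2 between tissues in LA rats and 3 in PF rats, under every alternative but those named here. At an adjusted p under 0.1, 1 gene, Pdia4, was called in liver, where 848 of all 9710 genes were. Between tissues, median centring gave 5 calls in LA rats and 6 in PF rats, all higher in liver. Of all genes it called 1985 of 11568 higher in LA rats and 2064 of 11492 in PF rats. Upper-quartile scaling gave 5 calls in each, all higher, where it called 1644 of all genes higher in LA rats and 1693 in PF rats. No fold threshold gave 8 calls in LA rats and 7 in PF rats, where 84.6% of all genes passed in each. Leaving out each library gave 0 to 0 calls for LA in liver, in fat and for the difference, 2 to 2 between tissues in LA rats and 3 to 3 in PF rats. Genes that changed direction were near 0 or moved with the scaling. Dnajb9 was at -0.0053 in liver and -0.016 in fat with median centring, and at -0.0010 in fat and 0.013 for the difference with upper-quartile scaling. Liver over fat, median centring gave Hspa5 0.12 in LA rats and 0.41 in PF rats, Hsp90b1 0.18 and 0.41, and Dnajb9 0.29 and 0.30. Upper-quartile scaling gave Hsp90b1 0.039 in LA rats and 0.25 in PF rats, Dnajb9 0.13 and 0.12, and Hspa5 0.26 in PF rats. With 1 library left out, fold changes in liver ran from -0.18 to 0.072 for Xbp1, -0.11 to 0.020 for Herpud1, -0.056 to 0.12 for Dnajb9 and -0.091 to 0.11 for Hsp90b1. In fat they ran from -0.098 to 0.038 for Xbp1, -0.067 to 0.080 for Dnajb9, -0.040 to 0.14 for Dnajc3 and -0.00037 to 0.26 for Sel1l. The difference ran from -0.15 to 0.11 for Xbp1, -0.075 to 0.12 for Dnajb9 and -0.038 to 0.14 for Dnajc3, and Calr between tissues in LA rats from -0.041 to 0.19.

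Over all genes, the calls for LA in liver were 435, against 208 without LA replicate 2, 267 without PF replicate 1 and 848 at an adjusted p under 0.1. The calls for the difference were 46, against 22 without the filter, 72 with upper-quartile scaling and 19 to 60 with 1 library left out. In fat 2 genes were called, against 0 without LA fat replicate 2 or 3 and 7 with all 16 libraries in one model. The cause of these shifts was not tested. Between the feeds, the deviations of same-numbered libraries had r = -0.00 to 0.15 in liver and -0.43 to -0.06 in fat. Across tissues r was -0.22 to 0.11 in LA rats and -0.03 to 0.29 in PF rats. PF liver replicates 1, 2 and 3 and LA liver replicates 2 and 3 had their highest r with the fat library of the same number. PF liver replicate 4 and LA liver replicates 1 and 4 did not. These values cannot decide whether the numbers mark rats, and the labels give no link, so the numbers were not taken as pairs. With the replicate block the calls among the 9 were 0 in each diet comparison, 2 between tissues in LA rats and 3 in PF rats. Every group holds each number, so the block leaves the fold changes as they were. Over all genes the calls between tissues also stayed at 5372 in LA rats and 5447 in PF rats, so these counts say little about pairing. For the difference the block left Trib3 called (limma adjusted p = 0.017) and Vldlr not (0.084). With 4 rats a group and unknown depth, changes within the printed intervals cannot be told from none.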
